A study of Mus musculus with 4 samples.

Results

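Base excision repair genes, with Apex1 at their head, were examined for chromatin accessibility in mouse embryoid bodies that carried either wild-type CTCF or CTCF with lysine 20 replaced by arginine (K20R). The list held 10 of the 21911 protein-coding genes of the annotation: Apex1, Ogg1, Ung, Xrcc1, Parp1, Lig3, Polb, Mutyh, Nthl1 and Neil1. They were taken by name, as genes of one repair pathway, with earlier results of these data known. Peaks within 1 kb of a gene's start were read as its promoter peaks, and merged peak regions reaching within 50 kb as its surroundings. The 10 genes had 87 such regions out of 80380 in all.

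The data were ATAC-seq peak lists, which mark stretches of DNA that the Tn5 transposase can reach. There were 4 libraries, 2 of WT and 2 of K20R, all from embryoid bodies on day 4 of hanging-drop differentiation in serum without LIF. Both genotypes came from E14Tg2A, a mouse embryonic stem cell line grown on inactivated mouse embryo fibroblasts, and the K20R change was introduced by CRISPR/Cas9. The number of K20R clones behind the libraries is not stated in the sources used here, and the 2 libraries of a genotype were described as biological replicates. Genotype and clone cannot be told apart in this design.

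Base excision repair replaces damaged bases one at a time. A DNA glycosylase recognizes and removes the altered base, which leaves an abasic site, and the AP endonuclease encoded by Apex1 cuts the backbone there. DNA polymerase beta fills the gap, and DNA ligase 3, held by the scaffold protein Xrcc1, seals it, while Parp1 senses the open strand. These are housekeeping genes in most tissues.

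The lists held 59783 and 66703 peaks in WT and 51823 and 55832 in K20R. The median summit pileup, the number of extended reads stacked on a peak's highest point, was 25 and 33 in WT against 29 and 38 in K20R, and the depth in reads is not known from the lists. The pluripotency genes Pou5f1, Nanog and Sox2 and the early mesoderm genes T, Mesp1 and Eomes had a promoter peak in 4 of 4 libraries. So did Col1a1, Col1a2 and Thy1, markers of the fibroblasts on which the stem cells had been grown, so promoter peaks did not separate these cell types and the part of any remaining fibroblasts was not tested. In whole embryoid bodies, fewer cells with an accessible promoter and less accessibility in each cell cannot be told apart. Pileups also depend on the number of DNA copies, which was not tested.

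On mm10 the glycosylase genes start on chromosome 6 at 113326972 (Ogg1), chromosome 5 at 114130386 (Ung), chromosome 4 at 116807723 (Mutyh), chromosome 17 at 24632680 (Nthl1) and chromosome 9 at 57148305 (Neil1). Xrcc1 starts on chromosome 7 at 24546289, Parp1 on chromosome 1 at 180568924, Polb on chromosome 8 at 22653435 and Lig3 on chromosome 11 at 82781108. None of these 9 shares a chromosome with Apex1.

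All 10 genes had a promoter peak in each of the 4 libraries, which held for 63.4% of all protein-coding genes. The promoter of Apex1 fell in K20R, and none of the other 9 promoters passed the test in either direction. Strength was first read as a percentile within each library, where 100 is the strongest peak by its −log10 p. On this scale Apex1 stood at 89.3 and 86.8 in WT against 71.1 and 73.3 in K20R. Its summit pileup was 85 and 114 in WT against 48 and 77 in K20R. The strongest K20R percentile of Apex1 lay well under the weakest WT one.

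The glycosylases covered the widest range of strengths. Ogg1, which removes 8-oxoguanine, had the strongest promoter peak of the list, at percentiles 99.9 and 99.9 in WT against 99.2 and 99.8 in K20R. Mutyh, which takes out adenine paired with 8-oxoguanine, followed with 99.1 and 99.4 in WT against 97.1 and 98.1 in K20R. Both stayed near the top of every library. Ung, the uracil DNA glycosylase, stood at 86.3 and 76.9 in WT against 88.6 and 82.9 in K20R. Nthl1, which acts on oxidized pyrimidines, stood at 84.3 and 92.2 in WT against 81.5 and 88.7 in K20R. For Ung and Nthl1 the 2 WT libraries differed by more than the means of the genotypes did. Neil1, another glycosylase of oxidized bases, stood at 78.9 and 90.9 in WT against 78.5 and 80.1 in K20R. WT replicate 2 alone set its WT level apart from the other libraries.

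Among the genes that act after the glycosylases, Xrcc1 stood at 94.9 and 95.2 in WT against 95.9 and 94.3 in K20R. Parp1 stood at 93.3 and 92.5 in WT against 91.5 and 92.9 in K20R. The percentiles of both genotypes overlapped at these 2 promoters. Polb, the gap-filling polymerase, stood at 87.2 and 90.9 in WT against 86.3 and 86.2 in K20R. Lig3 stood at 87.3 and 82.1 in WT against 81.3 and 78.9 in K20R. Both lay slightly lower by percentile in the K20R libraries, without overlap.

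**Figure D1:**
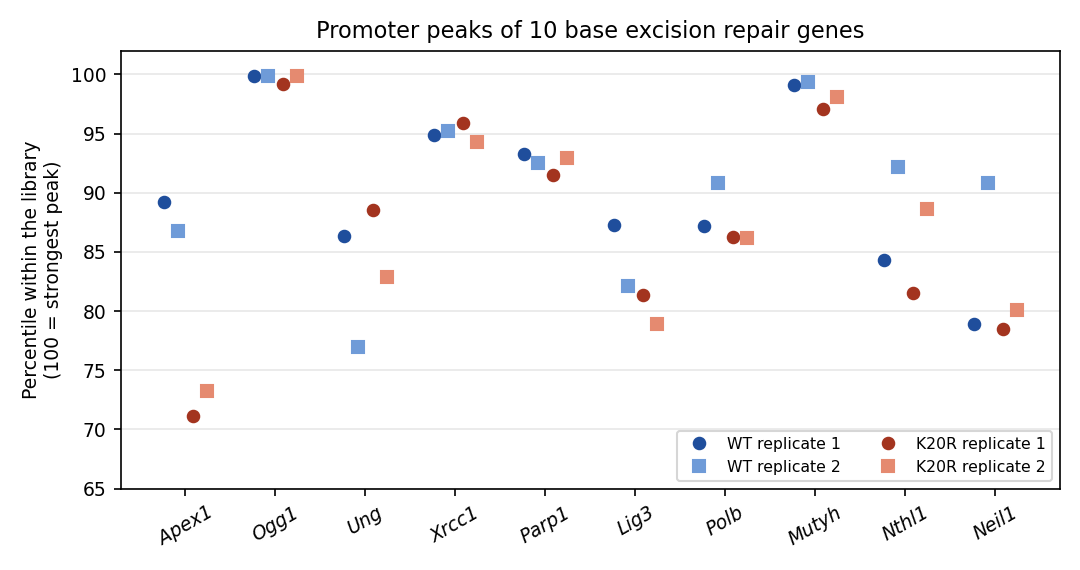
Percentile of the strongest promoter peak of each gene within its own library (vertical axis, 100 is the strongest peak; the axis starts at 65), with one point per library, blue for WT and red for K20R. The K20R points of Apex1, at 71.1 and 73.3, are the lowest on the plot, and those of the other 9 genes all lie at 78.5 or above.

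By percentile, both K20R libraries lay below both WT libraries at 5 of the 10 promoters, namely Apex1, Ogg1, Lig3, Polb and Mutyh. Over all 13899 promoters with a peak in every library this was so at 32%. At none of the 10 did both K20R libraries lie above both WT libraries, against 16% of all promoters. Percentiles depend on how long each list is, and the K20R lists were the shorter ones.

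The promoter test was therefore made on the summit pileup, as log2(pileup + 1) minus the median over all promoters of the same library, with limma and Benjamini-Hochberg adjustment over the 13899 promoters. On this centred scale the level of Apex1 was 0.22 and 0.08 in WT against −0.71 and −0.67 in K20R. The fitted difference was −0.84 ± 0.15 (SE, n = 2 libraries of each genotype), a ratio of 0.56, with an adjusted p of 0.00028 by limma. Here and below the SE is limma's moderated one, which is pulled towards the spread of all 13899 promoters. Of all promoters 5.1% were called lower and 4.89% higher by the same test, so that 1 of 10 lower and 0 of 10 higher was near the background. At an unadjusted p under 0.05 there were 2 of the 10, Apex1 and Neil1, against 3045 of the 13899.

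The other 9 differences lay between −0.34 and 0.27 on the log2 scale, with a median of −0.13. Neil1 marked the lower end, at −0.34 ± 0.16 (SE) with an adjusted p of 0.19 by limma. Ung marked the upper end, at 0.27 ± 0.14 (SE) with an adjusted p of 0.26 by limma. Nthl1 differed by −0.23 ± 0.14, Mutyh by −0.16 ± 0.10, Ogg1 by −0.14 ± 0.09 and Lig3 by −0.13 ± 0.16. Polb differed by −0.06 ± 0.14, and Xrcc1 and Parp1 each by 0.15 ± 0.12. The values of Ung and Neil1 depended most on the WT libraries. Without WT replicate 1 they were 0.49 and −0.55 on the log2 scale, with adjusted p of 0.033 and 0.038 by limma, and without WT replicate 2 they were 0.06 and −0.13, with adjusted p of 0.87 and 0.73 by limma. Without K20R replicate 1, Ung was at 0.14, and without K20R replicate 2 at 0.39.

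**Figure D2:**
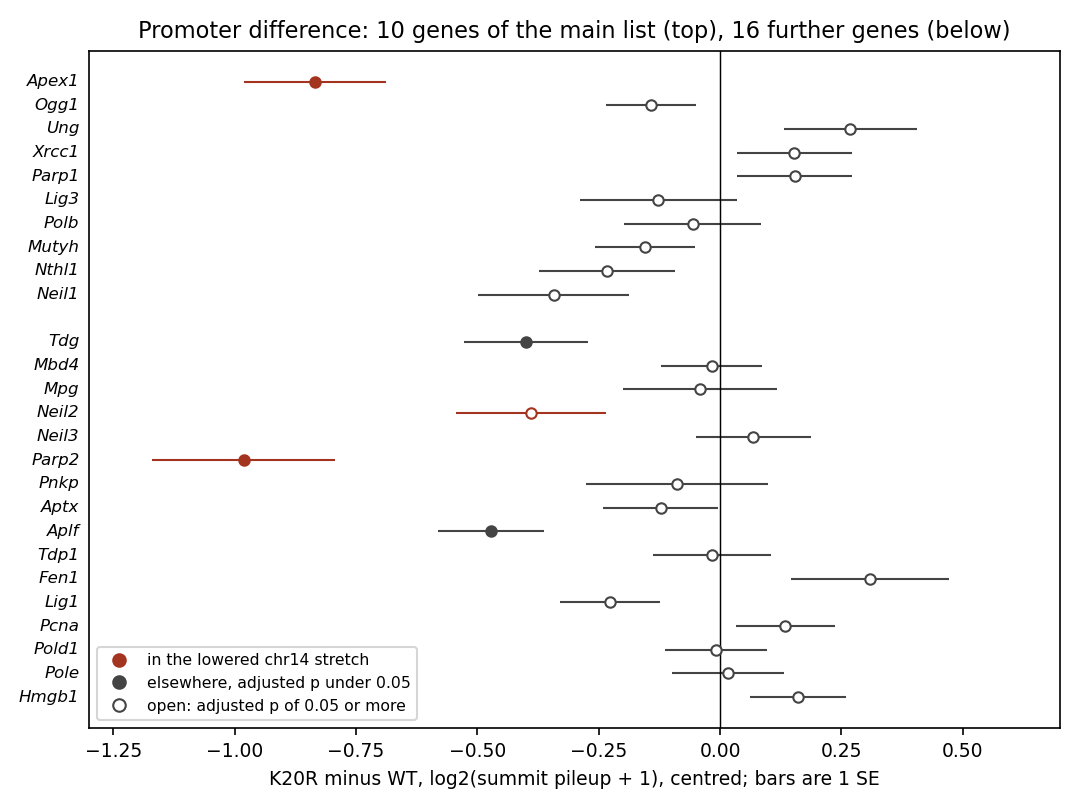
Difference in promoter level between K20R and WT (horizontal axis, log2 scale, bars of 1 SE) for the 10 genes and for 16 further base excision repair genes. Filled points passed the limma test and open points did not; red marks genes in the lowered stretch of chromosome 14. Apex1 at −0.84 and Parp2 at −0.98 are the farthest from 0.

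Apex1 starts on mm10 at chromosome 14, position 50924968, on the plus strand, within a long stretch of lowered regions. Along chromosome 14, windows of 20 neighbouring common regions, those with a peak in all 4 libraries, were lower in K20R from position 40947393 to 66176004, a stretch of 25.2 Mb. Apex1 lies 9.98 Mb from its start and 15.3 Mb from its end. A window counted as lower where each K20R median lay more than 0.3 below each WT median on the log2 scale. At least 3 such windows in a row made a stretch. Levels of regions were centred on the median over autosomal common regions, and on this scale the promoter region of Apex1 differed by −0.73. The other 339 common regions of the stretch differed by a median of −0.79. The stretch was found by its lower level, so its median and the shares that follow describe it and test nothing. In 89.4% of them both K20R libraries lay below both WT libraries and in 2.06% above. Among the 38187 common regions outside the stretch the median was 0.08 and these shares were 22.9% and 35.8%.

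The Apex1 promoter lay near the middle of this neighbourhood in how much it differed. Its level was above the median of the stretch by 0.75 and 0.64 in the WT libraries and by 0.71 and 0.83 in the K20R libraries, so the genotypes overlapped. These values had an SD of 0.08 over the libraries of each genotype. Their two-sided exact permutation p was 0.667, where 4 libraries cannot give a p below 0.333. The K20R minus WT difference of the Apex1 promoter lay 0.06 above the median difference of the stretch on the log2 scale. Of the other common regions 57.8% had a more negative difference than the Apex1 promoter. The 176 promoter regions among them had a median of −0.79 and the 163 regions outside promoters one of −0.78. The 19 other common regions within 1 Mb of Apex1 had a median of −0.68, and the 918 common regions of chromosome 14 outside the stretch had one of 0.05.

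**Figure D3:**
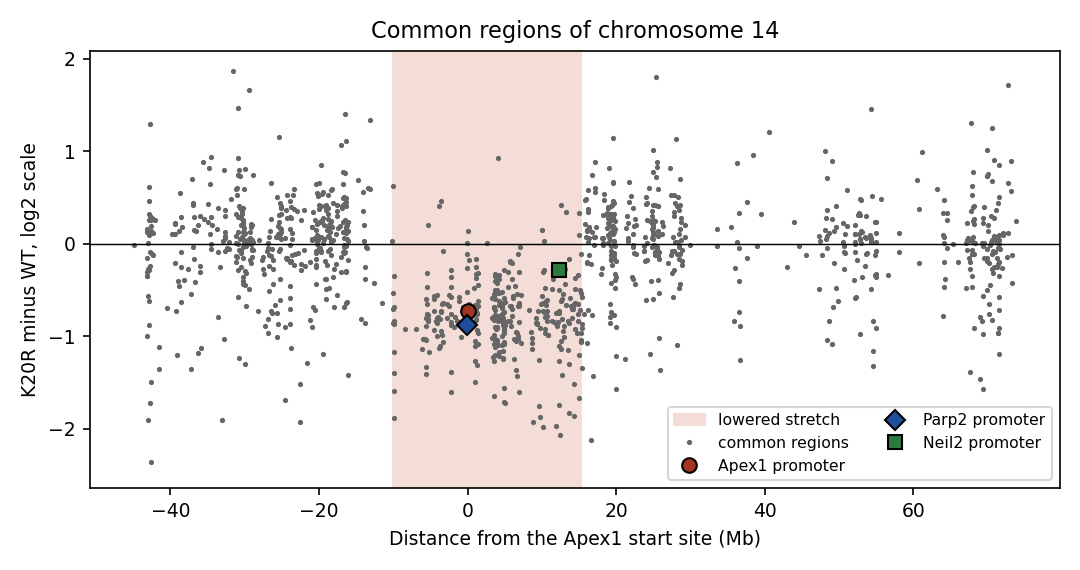
Difference between K20R and WT (vertical axis, log2 scale, centred) of each common region of chromosome 14 against its distance from the Apex1 start (horizontal axis, Mb). The shaded stretch of 25.2 Mb holds points around a median of −0.79, and the large symbols show the promoters of Apex1 at −0.73, Parp2 at −0.88 and Neil2 at −0.28.

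The read density around the Apex1 promoter was lower in K20R along with the peak itself. The local background that the peak caller set against this peak, recovered from the deposited fold and p, was 9.05 and 11.9 reads in WT and 6.29 and 8.56 in K20R. The K20R backgrounds were the 2 lowest of the 4. The study's methods name no control for the ATAC-seq lists. The background was thus drawn from the same library's reads and is not independent of the pileup. Centred in the same way, the background of Apex1 differed by −0.55 and its fold over background by −0.20 on the log2 scale. In the 340 common regions of the stretch the median differences were −0.68 for the background and −0.11 for the fold, and outside it they were 0.03 and 0.01. The background was lower in K20R without overlap in 85.3% of the common regions of the stretch and in 19.2% of those outside.

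Where the deposited fold was tested in place of the pileup, the Apex1 promoter differed by −0.22 on the log2 scale with an adjusted p of 0.66 by limma, and 0 of the 10 promoters passed. That scale called 57 promoters lower and 82 higher among all 13899, where the pileup called 709 and 679. The deposited fold itself was 8.56 and 8.91 at the Apex1 promoter in WT and 6.72 and 8.16 in K20R.

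The backgrounds of the other members moved less and in both directions. Parp1 was at 7.96 and 9.95 in WT against 11.4 and 14.9 in K20R, a centred difference of 0.40 on the log2 scale, and Xrcc1 had one of 0.32. Nthl1 and Neil1 differed by −0.29 and −0.30, and the remaining 5 by between −0.06 and 0.20.

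**Figure D4:**
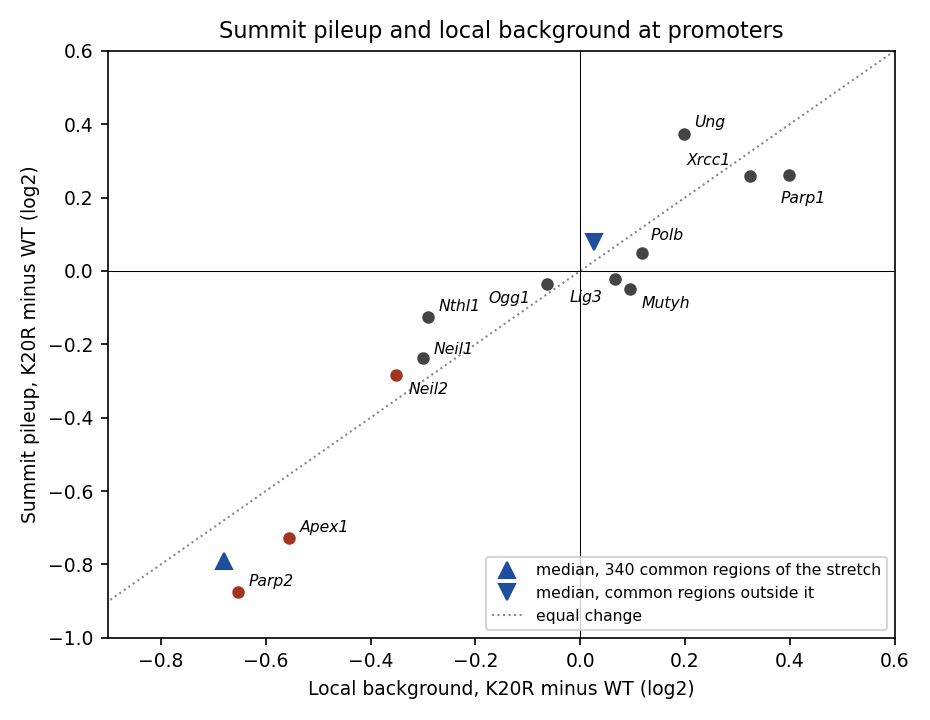
Difference between K20R and WT in local background (horizontal axis) and in summit pileup (vertical axis), both on the log2 scale, at the promoters of the 10 genes and of Parp2 and Neil2; red marks genes in the chromosome 14 stretch. Apex1 (−0.55, −0.73) and Parp2 (−0.65, −0.88) lie beside the median of the stretch (−0.68, −0.79), close to the line of equal change. Background and pileup come from the same reads and are not independent.

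The Apex1 promoter is shared. The start of Osgep, whose product modifies tRNA, lies 75 bp away on the other strand, and the same peak covers both. The bases between the starts are shown because they carry both genes' promoter and the peak whose level fell. They were read from the RefSeq sequence of GRCm38.p6, the same build as mm10, on the plus strand, and lie at chr14:50924894-50924967. Capitals mark CCAAT boxes, E-boxes of the letters CACGTG and a GC box of the letters GGGCGG.
Apex1 to Osgep: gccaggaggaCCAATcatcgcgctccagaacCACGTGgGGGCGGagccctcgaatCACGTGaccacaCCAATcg
The stretch held 2 CCAAT boxes, 2 E-boxes and 1 GC box. The summit of the Apex1 peak lay 68 bp upstream of the start in both WT libraries, within this stretch, and 119 bp upstream and 6 bp downstream in the K20R libraries.

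Head-to-head starts of this kind were shared by 4 of the 10 genes, against 5.54% of all protein-coding genes, when a protein-coding partner on the other strand within 300 bp was counted. Nthl1 starts 50 bp from Tsc2, which encodes the mTOR regulator tuberin, Mutyh 83 bp from Toe1, and Xrcc1 171 bp from Pinlyp. The intervals of the first 2 are shown beside that of Apex1 to compare how differently they are built, at chr4:116807641-116807722 and chr17:24632631-24632679 on the plus strand of the same build. Capitals mark a GC box and a CCAAT box of the other strand, which reads ATTGG here.
Mutyh to Toe1: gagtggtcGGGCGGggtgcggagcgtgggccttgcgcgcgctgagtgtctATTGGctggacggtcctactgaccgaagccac
Nthl1 to Tsc2: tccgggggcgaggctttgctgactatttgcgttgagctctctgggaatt
The interval of Nthl1 held neither motif. None of the promoter peaks read for these 3 other genes passed the limma test. The region read for Xrcc1, chr7:24546405-24547653, lay inside the gene and covered neither its start nor that of Pinlyp.

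The promoters were also searched as windows of 300 bases, from 250 before to 50 after each start, on both strands. The motif shares of all promoters cover all 21911 protein-coding genes, of which 63.4% had a promoter peak in every library. All 10 members had one, and no comparison was made with genes that had such peaks alone. The GC box stood in 9 of the 10 windows, with Neil1 as the exception, and in 43.0% of all promoters. CCAAT stood in 4 of the 10 (Apex1, Ogg1, Mutyh and Nthl1) and in 39.0% of all. The E-box stood in Apex1, Parp1 and Lig3, and in 7.74% of all. Neil1 was the member with a TATAAA box, found in 12.6% of all promoters. The median GC content of the 10 windows was 62.8%, from 52.3% in Xrcc1 to 66.3% in Mutyh, against 55% over all promoters. At Xrcc1 the summits lay between 704 and 750 bp inside the gene, and at Ung between 394 and 692 bp. A match describes the letters in the window and nothing more.

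Within 50 kb of Apex1 there were 7 regions, of which 6 were common and none was restricted to a genotype. The regions at the promoters of Pip4p1, 6114 bp downstream of the Apex1 start, and of Pnp, 19560 bp downstream, were among the strongest peaks of WT. Pip4p1 encodes a lipid phosphatase and Pnp purine nucleoside phosphorylase. The Pip4p1 region stood at percentiles 99.8 and 99.8 in WT against 95.4 and 91.4 in K20R. The Pnp region stood at 98.3 and 99.4 in WT against 90.5 and 90.6 in K20R. Both were lower in K20R without overlap, with differences of −0.74 and −0.72 on the log2 scale that nearly equalled the −0.73 of Apex1.

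The weaker regions near Apex1 did not separate the genotypes. The region at the Klhl33 promoter, 28088 bp upstream, stood at 66.3 and 51.7 in WT against 52.9 and 50.8 in K20R. An intergenic region 20555 bp upstream stood at 50.7 and 40.2 in WT against 28.5 and 50.8 in K20R. Another, 44807 bp downstream, stood at 50.7 and 61.9 in WT against 48.5 and 64.1 in K20R. The levels of these 3 overlapped between the genotypes, and their summit pileups were 41 or fewer in every library. The last region, 13563 bp downstream, stood at 34.7 and 56.1 in WT and at 40.4 in K20R replicate 2, and had no peak in K20R replicate 1.

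Across all 10 genes, 51 of the 87 regions were common, 5 were WT-restricted (a peak in both WT libraries and in neither K20R library), 4 were K20R-restricted, and 27 were other mixtures. The shares of 5.75% WT-restricted and 4.60% K20R-restricted stood beside 10.4% and 3.1% of all 80380 regions. Among the 51 common regions, 10 were lower in K20R and 17 higher without overlap of the centred levels. This was 19.6% and 33.3% of them, against 23.5% and 35.5% of all 38527 common regions. On these levels, unlike the percentiles, the promoter regions of Ung, Xrcc1 and Parp1 were higher in K20R without overlap. Those of Apex1 and Neil1 were lower without overlap, and those of Ogg1, Lig3, Polb, Mutyh and Nthl1 overlapped.

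**Figure D5:**
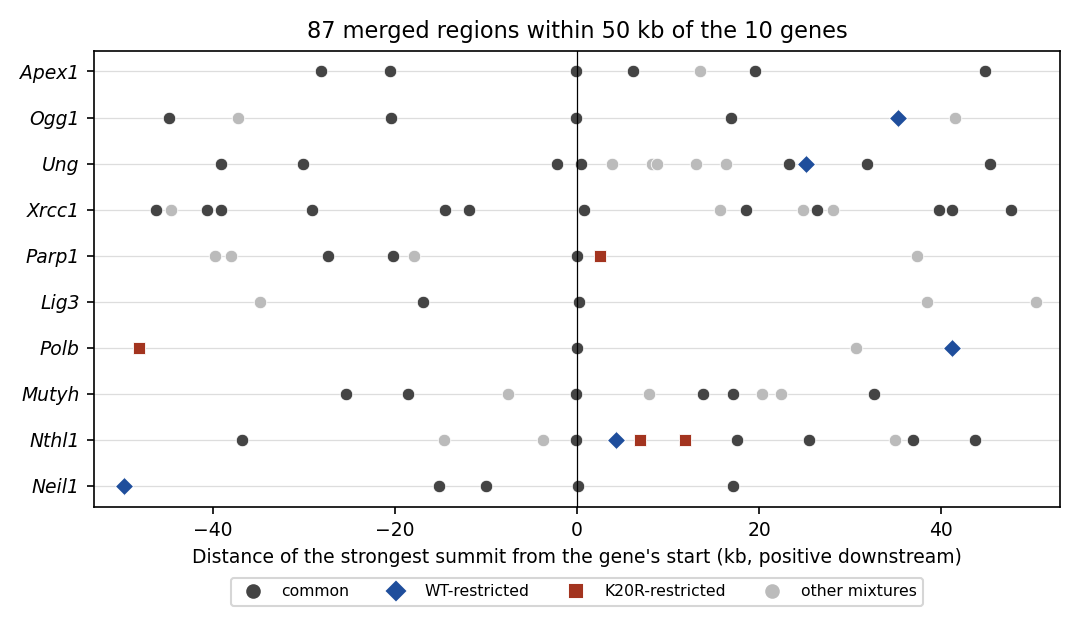
Regions within 50 kb of each of the 10 genes (rows), placed by the distance of their strongest summit from the gene's start (horizontal axis, kb, positive downstream), with one symbol per region and colour for its class. The 5 blue diamonds are WT-restricted and the 4 red squares K20R-restricted, 3 of these 9 within 12 kb downstream of the start of Nthl1 and none near Apex1, Xrcc1, Lig3 or Mutyh.

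Nthl1 held the strongest of the restricted regions. A peak in an intron of the gene, 4262 bp downstream of its start, stood at percentiles 82.3 and 85.9 in WT, with summit pileups of 74 and 123, and had no deposited peak in either K20R library. Peaks are numbered along each list, with gaps where called peaks are missing from it. The numbers on both sides of the gap followed on each other in both K20R lists, so no called peak had been left out there. Of the 8341 WT-restricted regions 0.719% were at least this strong in their weaker WT library. The region spans chr17:24636662-24637433, and the 101 bases around its strongest summit, at chr17:24636892-24636992, are shown because this was the clearest loss of a peak near a member.
Nthl1 intron: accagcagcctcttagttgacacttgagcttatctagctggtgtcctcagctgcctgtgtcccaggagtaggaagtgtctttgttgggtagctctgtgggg
No exact match to the CTCF consensus given below stood within 100 bp of this summit. Farther downstream, 2 regions at Slc9a3r2 were K20R-restricted. The first, 6919 bp from the Nthl1 start, stood at 25.8 and 33.7 in K20R, and the second, 11835 bp from it, at 5.3 and 19.9. The numbering of both WT lists was unbroken there as well. The promoter of Nthl1 itself overlapped between the genotypes.

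The other restricted regions were weaker. Near Ung, a WT-restricted region in an intron of Acacb, 25096 bp downstream, stood at 33.8 and 28.8. A WT-restricted region 35250 bp downstream of the Ogg1 start stood at 29.1 and 36.3, and one 49705 bp upstream of the Neil1 start at 30.6 and 30.0. Polb had a WT-restricted region 41186 bp downstream, at 6.4 and 14.1, and a K20R-restricted one 48043 bp upstream, at 5.5 and 2.0. In an intron of Parp1, 2499 bp from its start, a K20R-restricted region stood at 32.7 and 37.7. At all of these except the one near Ung, peak numbers were missing beside the region in at least 1 library without a peak, so an undeposited call cannot be told apart from no call.

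Some common regions differed more than the promoters beside them. An intergenic region 15119 bp upstream of the Neil1 start stood at 83.7 and 78.5 in WT against 49.7 and 47.2 in K20R, a difference of −1.26 on the log2 scale. It was the most lowered of the 51. A region 39727 bp downstream of the Xrcc1 start, at an exon of Zfp575, had summit pileups of 27 and 29 in WT against 51 and 75 in K20R, a difference of 1.07 and the largest rise of the 51. Near Xrcc1, 8 of the 12 common regions were higher in K20R without overlap and none was lower. Of all common regions 35.5% were higher and 23.5% lower in this way. Near Ung, a region at the start of Acacb, 16363 bp downstream, had summit pileups of 47 and 53 in WT and of 13 in K20R replicate 1, and was without a peak in K20R replicate 2. These regions were named after their values were seen.

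CTCF is the protein that carries the K20R change, and its consensus motif, searched on both strands within 100 bp of the strongest summit, stood in 4 of the 87 regions (4.60%), against 5.97% of all regions. The sites are shown, 30 bases each on the strand of the motif with its core in capitals, because they are the matches in the regions around these genes. They lie at chr7:24572640-24572669, chr4:116789157-116789186, chr4:116800125-116800154 and chr17:24667624-24667653 of the same build, and all but the third are on the minus strand.
Xrcc1 intron: acctacatgCCAGTAGAGGGCatcagattc
Mutyh, first site, in Tesk2: caaaaagaaCCAGTAGGGGGCagcaccgta
Mutyh, second site, in Tesk2: tataggctgCCAGCAGAGGGCgtgacacag
Nthl1, near Zfp598: catgattggCCAGCAGAGGGCctactgtga
None of these 4 regions was restricted to a genotype. The Xrcc1 region stood at percentiles 20.3 and 36.4 in WT against 50.4 and 28.1 in K20R, and the first Mutyh region at 53.2 and 54.3 in WT against 43.6 and 46.0 in K20R, and the centred levels of both overlapped between the genotypes. The second Mutyh region stood at 51.1 and 59.7 in WT and at 56.7 in K20R replicate 2, without a peak in K20R replicate 1. The Nthl1 region stood at 42.0 in WT replicate 2 and at 57.3 and 56.5 in K20R, without a peak in WT replicate 1. No CTCF consensus stood within 100 bp of the strongest summit in the 7 regions of Apex1, and the rest of these regions was not searched. The paper describes lower Apex1 expression with weaker enhancer-promoter interactions and decreased CTCF binding at this locus, none of which was measured here.

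The rest of the pathway was read from 18 further base excision repair genes, of which 16 had promoter peaks throughout. In the same limma fit 3 fell in K20R (Parp2, Aplf and Tdg), none rose, beside 5.1% lower and 4.89% higher over all promoters, and the median difference was −0.03 on the log2 scale. Parp2, which like Parp1 builds poly(ADP-ribose) at breaks, differed by −0.98 ± 0.19 (SE) with an adjusted p of 0.00082 by limma. Its centred level was 0.45 and 0.16 in WT against −0.26 and −1.10 in K20R, so that its K20R libraries lay far apart. Its libraries had an SD of 0.20 in WT and 0.59 in K20R, a spread that the moderated SE carries only in part. Its difference was −1.40 without K20R replicate 1 and −0.56 without K20R replicate 2. Parp2 starts 117 kb from Apex1 in the same chromosome 14 stretch, where its promoter region differed by −0.88, and by −0.09 from the median of the stretch.

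Aplf and Tdg lie outside that stretch. Aplf, whose product binds poly(ADP-ribose) at breaks, had centred levels of 0.86 and 0.88 in WT against 0.39 and 0.40 in K20R, a difference of −0.47 ± 0.11 (SE) with an adjusted p of 0.0048 by limma. Tdg, the thymine DNA glycosylase, had 0.28 and 0.42 in WT against −0.04 and −0.06 in K20R, a difference of −0.40 ± 0.13 (SE) with an adjusted p of 0.047 by limma. The call of Tdg was lost under 9 of 11 alternatives. On the fold scale none of Parp2, Aplf and Tdg passed. Neil2, a glycosylase whose gene also lies in the stretch, differed by −0.39 ± 0.15 (SE) with an adjusted p of 0.12 by limma, and its promoter region lay 0.51 above the median of the stretch. It was at −0.61 without K20R replicate 1, with an adjusted p of 0.030 by limma, and at −0.17 without K20R replicate 2. The smallest change was that of Pold1, the catalytic subunit of DNA polymerase delta, at −0.01.

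Apex2 and Smug1 lacked a promoter peak in at least 1 library. At Apex2, which encodes a second AP endonuclease, the peaks lay 1303 to 1406 bp inside the gene at other transcript starts, at percentiles 91.7 and 91.6 in WT against 88.2 and 89.6 in K20R. At Smug1, another uracil glycosylase, a common region 3774 bp inside the gene stood at 86.9 and 77.9 in WT against 76.9 and 79.4 in K20R. A weaker one, 1503 bp inside, stood at 32.1 and 41.6 in WT against 66.4 and 47.9 in K20R. Its centred level was higher in K20R without overlap, as in 35.5% of all common regions.

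The genes whose 4 promoter percentiles came closest to those of Apex1, by the summed absolute difference, were Arhgef28 (5.82 percentile points), Inafm2 (6.44) and Trim35 (7.62). Arhgef28 stood at 87.8 and 89.4 in WT against 69.7 and 72.9 in K20R. It lies on chromosome 13 and Inafm2 on chromosome 2, and Trim35 lies from position 66297031 to 66311424 of chromosome 14, just past the end of the stretch as the windows of 20 regions set it, and its promoter region differed by −0.91 on the log2 scale.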

How the data were processed

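The data were the ATAC-seq peak lists of 2 WT and 2 K20R libraries. According to the study's methods, reads were trimmed with Trim_Galore, aligned to mm10 with bowtie2, filtered on mapping quality, duplicates and blacklisted regions, and peaks were called with MACS2. In the deposited lists the authors give a score, the fold enrichment over local background and the −log10 p and −log10 q of each summit. The other columns used hold positions and numbered peak names.

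Percentiles were ranks of the deposited −log10 p within a list. The deposited fold and p were solved for summit pileup and background, and 100% of pileups came out whole within a relative tolerance of 0.0001. Promoter levels, log2(pileup + 1), were compared with limma 3.58.1 (trend) in R 4.3.3 over 13899 promoters, after a check on simulated data. The SE and p-values rest on limma's moderated variance, which pulls each promoter's spread towards the trend over all promoters. With 2 libraries of each genotype, they cover the spread between these libraries only in that moderated form. Peaks sharing at least 1 bp were merged. Gene starts came from GENCODE vM21. Peak numbers have gaps, and 50.5% to 60.8% of the numbers are in the lists.

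The genes and lists were chosen with earlier results of these data known. All 10 genes were named. Of the further genes, those passing the test, those without a promoter peak in every library and those with the largest and smallest change were named, with Neil2 added for its position. All restricted regions, every region near Apex1, genes sharing a promoter peak with a member and the 3 genes closest to Apex1 in percentiles were named as well. Alternatives are given in the closing section.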

Additional observations from a re-analysis of the deposited data

How the results depend on the processing

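The fall of the Apex1 promoter passed the limma test under every alternative except the fold scale, and its value without 1 library ran from −0.90 to −0.76 on the log2 scale. On the fold scale 0 of the 10 genes and 0 of the further genes were lower, and the cause was not tested. Without 1 library, 1 to 2 of the 10 were called lower and 0 to 1 higher, the 2 lower and 1 higher without WT replicate 1, and 2 to 3 of the further genes were called lower. On the fold scale the sign of Xrcc1 (−0.11), Parp1 (−0.18), Nthl1 (0.12), Neil1 (0.0197), Neil2 (0.0254) and Pold1 (0.0622) reversed. Pold1 also reversed with a promoter of 500 bp or any transcript start (0.002369 in both). Without 1 library, Lig3 ran from −0.31 to 0.0685 and Pold1 from −0.0384 to 0.0312.

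WT-restricted regions near the 10 genes, 5 of 87, numbered 3 of 61 with a −log10 q of at least 10, 1 of 45 within 20 kb and 9 of 160 within 100 kb. Without 1 library, whichever was left out, they numbered 9 to 10, and the share of all regions rose with them from 10.4% to between 12.6% and 20.8%. K20R-restricted regions, 4 at first, numbered 1 with that q threshold and 4 to 9 without 1 library. They were 9 without K20R replicate 1 and 7 without WT replicate 2, where the share of all regions was 8.05% and 7.45%, against 3.1%. The Apex1 promoter minus its neighbourhood was −0.0910 on the fold scale and −0.0458 within 1 Mb, against 0.06, and −0.01 to 0.12 without 1 library. Windows of 40 regions, added after the data were seen, gave 0.03. With them the stretch began earlier, at position 34634838, and was 31.5 Mb long, so its start depends on the window size.

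Replicate numbers were not stated to pair libraries, and deviations of same-numbered libraries correlated by 0.10. With the replicate number as a block, 970 promoters were lower and 912 higher over all genes, and the same members and further genes were called (1 and 3 lower). Over all promoters the 709 lower and 679 higher became 57 and 82 on the fold scale, 391 lower without WT replicate 2 and 436 higher without K20R replicate 1. Depth is unknown from peak lists, so a missing peak is a missing call, not missing accessibility.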
